A study of Homo sapiens with 12 samples.

Results

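Keratins and epithelial surface genes were followed through RNA sequencing of MDA-MB-231 cells, a triple negative breast cancer line with a mesenchymal-like shape, grown as a 3D culture in Matrigel. The 10 genes described were chosen by name, among the 63568 genes of the count table, as those that mark an epithelial origin. They are the keratins KRT7, KRT8, KRT18, KRT19, KRT80, KRT81 and KRT86, the surface glycoprotein EPCAM and the claudins CLDN1 and CLDN7. Each was found in the table, and 10 of 10 passed the filter on low counts that left 25249 genes for testing. RNA was taken from 12 samples in 6 conditions with 2 samples each. C1 is untreated cells on day 2 and C2 is untreated cells on day 4. The other 8 samples received Paclitaxel on day 2 at 0.0005, 0.005, 0.05 or 0.5 μM and were taken on day 4. The day of drug addition is taken from the labels and design text of the series, while the sample titles give only the dose and day 4. The study's methods for RNA name no day of addition, and those for the imaging cultures name a later day. The time of exposure is to be read with that doubt. All 12 samples were of 1 cell line that carries a green fluorescent protein, and they were released from the gel with collagenase and dispase before extraction, so that line and release were shared by every condition. The study compared treated with untreated cultures to see which genes of active migration respond to the drug. Paclitaxel binds microtubules and stops their normal turnover, which arrests dividing cells. A bulk RNA level cannot tell fewer cells that carry a transcript from less transcript per cell.

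Keratins are the intermediate filament proteins of epithelia. A type I (acidic) keratin always assembles with a type II (basic) keratin, and a cell that lacks a partner degrades the unpaired protein. KRT8 with KRT18 is the basic pair of simple epithelia, KRT19 is a further type I keratin of ducts and KRT7 a type II keratin of glandular epithelia, including breast. KRT80 is a type II keratin found in many epithelia. KRT81 and KRT86 are type II hair keratins that are also seen in breast tumours. EPCAM is a homophilic adhesion molecule of epithelial membranes, and claudins are the membrane proteins that seal tight junctions. In the epithelial-mesenchymal transition (EMT) the factors ZEB1 and SNAI1 repress the cadherin gene CDH1 and other epithelial genes, while the filament protein vimentin (VIM) rises.

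The samples held between 38380629 and 79169121 counts, with a median of 65977095.5. Replicates correlated at a Pearson r of log2 CPM (counts per 1000000 of the scaled library) between 0.991 and 0.998 across genes in 5 conditions, and at 0.960 in C1, whose libraries stand apart. The 10 genes together held 0.0911% to 0.126% of the counts of a sample. The label of a mesenchymal-like line was checked against its markers. VIM had a mean of 1057 CPM (range 796.5 to 1366) and ZEB1 a mean of 87.6 CPM (77.3 to 100.6). CDH1 had a mean of 0.104 CPM (0.0281 to 0.201), and ESRP1, an epithelial splicing factor, 0.639 CPM. The summed level of 11 fibroblast markers was 9.34 to 17.1 CPM in untreated and 13.2 to 22.0 CPM in treated samples, and their part in the results was not tested. None of the 11 was at 0 in all samples, and COL1A1 (7.62 CPM) and PDGFRB (6.14 CPM) had the highest means.

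KRT81 (chr12:52679697-52685318, minus strand) lies within the annotated span of KRT86 (chr12:52643084-52702947, plus strand), and they are the pair of genes whose reads are hardest to assign. Every stretch of 100 bases of the transcripts, the length of 1 read, was searched in the other genes. For KRT81, 30.3% of such stretches occurred in another gene, and 29.4% of all stretches in KRT86. For KRT86 the shares were 32.0% and 25.0%. The deposited counts kept uniquely aligned reads, so a read inside a shared stretch counts for neither gene unless its mate lies outside, and KRT86, the lower of both, is to be read as uncertain. With the counts of both genes summed into 1 feature, the number of genes called in each comparison stayed within 1.5 times that reported here.

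The other genes share less. KRT18 (chr12:53342655-53346690, plus strand) and KRT8 (chr12:53290971-53343738, minus strand) overlap in 525 bases of exon on opposite strands, which is 17.1% of the exon length of KRT18, and 12.2% of the 100-base stretches of KRT18 lie in KRT8. The strand setting of the count was not given in the sources used here, so reads of that stretch cannot be told apart between them. KRT7 (chr12:52626304-52645970) shared 8.32% of its stretches with its antisense gene KRT7-AS, which had 3.67 CPM against 192.1 CPM of KRT7. CLDN7 (chr17:7163222-7167302) shared 9.32% with an unnamed protein-coding gene on the same strand. KRT8 shared 3.8% with the pseudogenes KRT8P3 and KRT8P33. KRT19 (chr17:39679869-39684560), KRT80 (chr12:52562780-52585798), EPCAM (chr2:47572297-47614740) and CLDN1 (chr3:190023496-190040235) shared none. Reads assigned to the 51 pseudogenes of KRT8 summed to 5.05% to 6.66% of its own counts, and those of the 67 pseudogenes of KRT18 to 1.38% to 3.31%.

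The simple-epithelium keratins were among the more abundant transcripts of this line. Levels were compared between genes as CPM per kilobase of exon, since CPM alone grows with transcript length. KRT19 led with a mean of 88.4 CPM per kilobase (range over 12 samples 61.6 to 118.8), which put it at percentile 98.2 of the tested genes. KRT8 followed with 60.7 (45.7 to 73.4), KRT7 with 48.0 (42.0 to 60.8) and KRT18 with 47.7 (35.9 to 61.1). KRT8 has the longest annotated exon length, 6881 bases, which lowers its value on this scale. KRT19 exceeded KRT8 in 12 of 12 samples and KRT8 exceeded KRT7 in 10 of 12, although their ranges overlap. The ranges of KRT7 and KRT18 overlapped, and KRT7 was higher in 7 of 12 samples. These were 4 of 4 untreated samples and 3 of 4 at 0.005 and 0.5 μM, while KRT18 was higher in 4 of 4 samples at 0.0005 and 0.05 μM.

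A step down separated the remaining genes from these 4. KRT81 had 17.8 CPM per kilobase (13.0 to 25.1) and KRT80 12.5 (9.11 to 19.99), with KRT81 higher in 11 of 12 samples. CLDN7 had 6.59 (5.22 to 8.53) and CLDN1 6.00 (3.51 to 8.43), and these did not separate, CLDN7 being higher in 9 of 12 samples. EPCAM came ninth with 2.08 (1.80 to 2.79), at percentile 55.3 of tested genes. KRT86 was lowest with 1.12 (0.797 to 1.50). On the same scale VIM had 204.2, above every one of the 10, and ZEB1 10.1, between KRT80 and CLDN7.

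**Figure D1:**
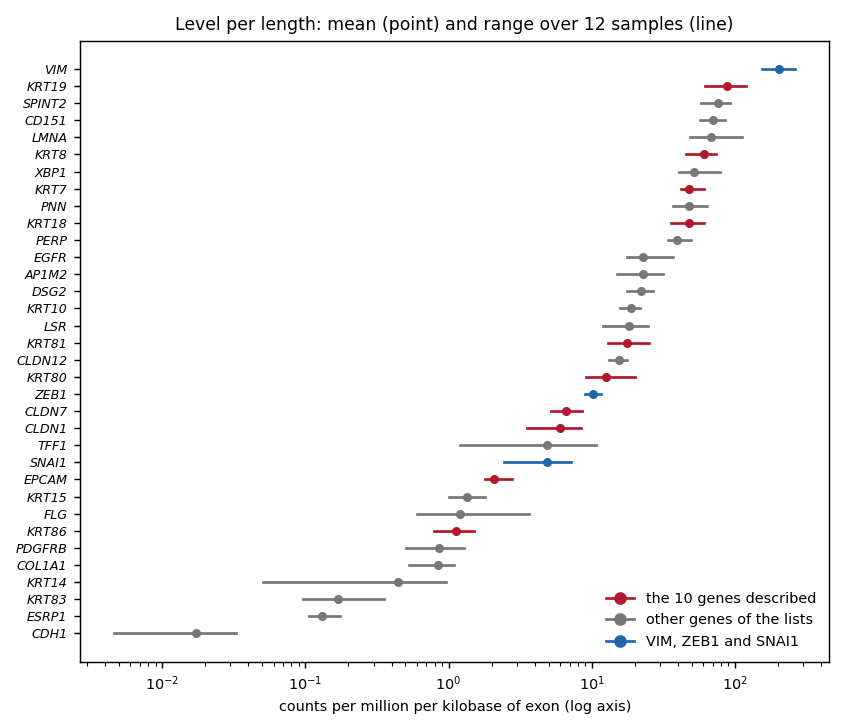
Level of the 10 genes (red), of VIM, ZEB1 and SNAI1 (blue) and of a selection of other named genes (grey) in CPM per kilobase of exon on a log axis, where points are means and lines the range over 12 samples. The 4 simple keratins lie between 47.7 and 88.4, below VIM at 204.2, and CDH1 is the lowest of the genes drawn at 0.0171.

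Per kilobase of exon, KRT19 was the leading keratin in 12 of 12 samples. It made up 31.9% of the summed level per length of the 7 keratins (26.6% to 36.6% over samples), KRT8 22.0%, KRT7 17.5%, KRT18 17.3%, KRT81 6.41%, KRT80 4.54% and KRT86 0.405%. This scale divides by all annotated exon bases, 2336 for KRT19 and 6881 for KRT8. In CPM without that division KRT8 was higher, with a mean of 417.3 against 206.6 for KRT19. The order, the shares and the ratios below thus depend on the exon lengths used. The 5 type II keratins divided by both type I keratins gave 1.22 and 1.24 in C1, 1.07 and 0.988 in C2 and 0.888 and 0.830 at 0.0005 μM. At 0.005 μM the ratio was 1.003 and 1.005, at 0.05 μM 1.03 and 0.974, and at 0.5 μM 1.13 and 1.10. Both C1 samples lay above all other samples and both 0.0005 μM samples below them. No test of these ratios was made. KRT8 over KRT18 stayed between 1.10 and 1.40 in all 12 samples, with no condition apart.

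**Figure D2:**
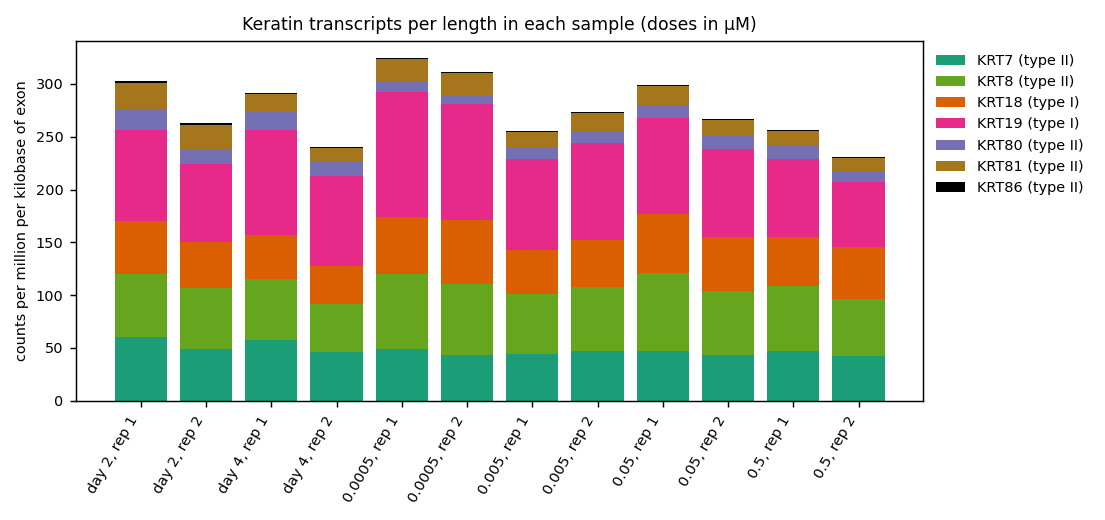
Summed level of the 7 keratins in each of 12 samples in CPM per kilobase of exon, stacked by gene, with type II and type I keratins named in the key. KRT19 is the largest layer in every sample, 26.6% to 36.6% of the stack.

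Among the 10 genes, KRT80 differed between the 8 treated and the 4 untreated samples, falling to 0.669 of the untreated level. KRT80 measured 87.2 and 55.2 CPM in C1 and 81.1 and 56.3 CPM in C2. The treated samples had 44.6 and 39.8 CPM at 0.0005 μM, 44.2 and 47.5 at 0.005 μM, 53.8 and 51.1 at 0.05 μM and 49.7 and 44.02 at 0.5 μM. All 8 treated samples thus lay below all 4 untreated samples, a pattern found in this direction in 5.77% of tested genes, and replicate 1 was the higher sample in both untreated conditions. The log2 fold change was -0.58 (SE 0.12, adjusted p = 0.00296, edgeR quasi-likelihood test). The call was kept in 21 of 21 alternatives, with a log2 fold change from -0.68 to -0.44. Of all tested genes, 24.4% were called in this comparison and 11.3% were called lower, so 1 called gene of 10 is no more than the background share. C1 was taken on day 2 and every treated sample on day 4, so treatment and culture time cannot be told apart for those samples. With C2 alone as the control for the 8 treated samples the value was -0.54 (adjusted p = 0.0101). The log2 fold change of single doses against C2 was -0.70, -0.58, -0.39 and -0.55 from the lowest to the highest dose, with adjusted p-values of 0.12, 0.165, 0.31 and 0.151, which miss the threshold. Without either C1 sample all of these but that at 0.05 μM were called. No trend along dose was detected for KRT80 among treated samples (slope 0.07 per 10-fold dose, SE 0.04, adjusted p = 0.428).

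KRT18 and its partner KRT8 had their lowest condition means in C2. KRT18 measured 153.3 and 134.1 CPM in C1, 126.4 and 110.1 in C2, 163 and 187.6 at 0.0005 μM, 127.6 and 135.7 at 0.005 μM, 171.3 and 158.3 at 0.05 μM, and 141 and 149.6 at 0.5 μM. Every treated sample was above both C2 samples, the lowest at 127.6 against 126.4 CPM, while the treated range overlapped that of C1. The share of all genes with this order was not computed. KRT18 was 0.57 (SE 0.14) above C2 on the log2 scale at 0.0005 μM, with an adjusted p of 0.0587, and 0.48 (SE 0.14) above at 0.05 μM, with an adjusted p of 0.0579. These sat just outside the threshold of 0.05, while 2.34% and 8.32% of all tested genes were called at these doses. KRT18 was called at both doses with a filter at a mean of 10 counts, with GC content and length offsets, with only the 4 samples of the comparison, with DESeq2 and without either C1 sample. It was also called at both with both C1 samples left out, an alternative added after the data were seen.

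KRT8 measured 406.5 and 400.1 CPM in C1, 397.9 and 314.6 in C2, 492.7 and 462.4 at 0.0005 μM, 393.5 and 422.9 at 0.005 μM, 504.7 and 413.6 at 0.05 μM, and 421.9 and 377.1 at 0.5 μM. Replicate 2 of C2 was low against the other untreated samples. The treated range overlapped the untreated range, and the log2 fold change of treated against untreated was 0.20 (SE 0.11, adjusted p = 0.207). For KRT18 it was 0.24 (SE 0.12, adjusted p = 0.152). With offsets for GC content and gene length both were called in this contrast. The median log2 fold change of genes above 8 CPM was -0.15 here, against -0.0019 over all tested genes.

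KRT7 had its highest condition means in C1 and C2. It measured 243 and 195.3 CPM in C1 and 229.9 and 184.9 in C2, and between 168 and 195.4 in the 8 treated samples, whose median was 181.5. The ranges overlapped, with the replicate 2 samples of C1 and C2 inside the treated range and both replicate 1 samples above it. The log2 fold change was -0.23 (SE 0.10, adjusted p = 0.0841), which misses the threshold. KRT7 was called lower with DESeq2 and without replicate 2 of C2. Along dose no trend was detected, with a slope of -0.01 (SE 0.04, adjusted p = 0.898).

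KRT19 fell along dose. It measured 277.5 and 254.6 CPM at 0.0005 μM, 200.9 and 214.9 at 0.005 μM, 213.5 and 195 at 0.05 μM, and 174.5 and 143.8 at 0.5 μM. Both samples of the lowest dose were above, and both of the highest dose below, all other treated samples. How many of all genes show this order was not computed. Untreated cells had 201.5 and 172.1 CPM in C1 and 232.6 and 198.5 CPM in C2, all inside the range of the treated samples. The slope was -0.22 per 10-fold dose on the log2 scale (SE 0.04, adjusted p = 0.0144). At 0.5 μM the log2 fold change of KRT19 against C2 was -0.44 (SE 0.15), with an adjusted p of 0.116, and it was called without either C1 sample and with GC content and length offsets.

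Along dose, 4 of the 10 genes were called and all 4 fell: KRT19, KRT81, CLDN1 and CLDN7. With the replicate number as a block 2 of these were called, KRT19 and CLDN1, while calls over all genes went from 773 to 420. The background without the block was 3.06% of all tested genes called and 2.04% called lower. Among other type I keratins 3 of 8 tested were also called lower along dose, with a median slope of -0.32. Of tight junction genes 1 of 24 was called lower, and of desmosome genes 0 of 9 were called. The median slope was -0.10 over the 10 genes and 0.01 over all tested genes. The slopes are fitted to the 8 treated samples, so untreated cells do not enter. In alternatives added after the data were seen, with 6 samples in place of 8, the 4 slopes stayed negative. Without the 0.0005 μM samples none of the 10 was called, with slopes of -0.19 for KRT19, -0.10 for KRT81, -0.23 for CLDN1 and -0.14 for CLDN7. Without the 0.5 μM samples CLDN7 was the 1 called, at -0.27, beside -0.18 for KRT19, -0.15 for KRT81 and -0.15 for CLDN1. Over all genes 31 were called without the 0.0005 μM samples and 469 without the 0.5 μM samples, against 773 with 8 samples. Leaving out replicate 1 at 0.0005 μM or replicate 2 at 0.5 μM also left none, in fits that called 123 or 251 of all genes. There remained 2 without replicate 2 at 0.0005 μM or without replicate 2 at 0.005 μM, where 276 or 435 of all genes were called. All 4 slopes stayed negative in each of 18 alternatives. None of the 3 steps between neighbouring doses was called for any of the 10 genes, nor for any other tested gene (0% called). At an unadjusted p under 0.05 there were 3, 2 and 2 of the 10 in these steps, and the share over all genes at that cut was not computed. DESeq2 called none of the 10, with 0, 30 and 4 calls over all genes.

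**Figure D3:**
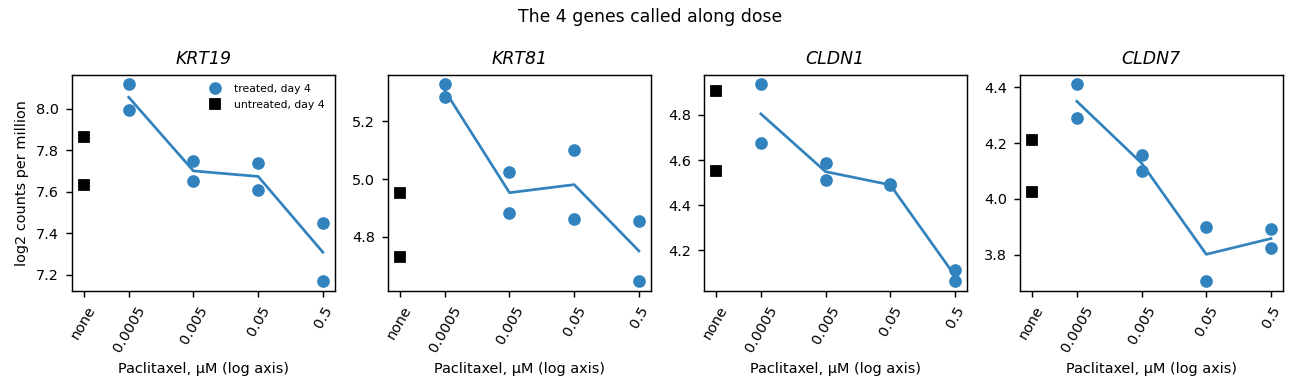
Log2 CPM against Paclitaxel dose (log axis, μM) for KRT19, KRT81, CLDN1 and CLDN7. Blue points are single treated samples, lines join the means of 2 samples, and black squares at the left are the 2 untreated samples of day 4. The slopes per 10-fold dose are -0.22, -0.16, -0.22 and -0.18.

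KRT81 varied over the 6 conditions, with its highest level in C1. It measured 48.4 and 47.0 CPM in C1, 30.9 and 26.5 in C2, 40.1 and 39.0 at 0.0005 μM, 29.5 and 32.5 at 0.005 μM, 34.3 and 29.1 at 0.05 μM, and 28.9 and 25.0 at 0.5 μM. Both C1 samples were above all others and both 0.0005 μM samples came next. The test over any of 6 conditions gave an adjusted p of 0.0144 for KRT81 and 0.00407 for CLDN1, which made 2 of 10 genes called where 11% of all tested genes were. Without replicate 2 at 0.5 μM CLDN1 was the 1 called, and without replicate 1 or replicate 2 of C1 there were 6 or 7, in fits that called 31.0% or 33.8% of all tested genes. From day 2 to day 4 of untreated culture the log2 fold change of KRT81 was -0.73 (SE 0.15), with an adjusted p of 0.071. KRT81 was called in this comparison with DESeq2, with GC content and length offsets, with a filter at 1 count in total and without either C1 sample. The slope along dose was -0.16 (SE 0.04, adjusted p = 0.0456), the nearest to the threshold of the 4. This call was lost with the replicate number as a block (adjusted p = 0.074) and in 8 of 18 alternatives in all, among them without either 0.0005 μM sample, either 0.5 μM sample or replicate 2 at 0.005 μM.

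KRT86 measured 3.64 and 3.16 CPM in C1, 2.11 and 1.93 in C2, 2.89 and 3.23 at 0.0005 μM, 3.02 and 2.61 at 0.005 μM, 3.13 and 2.51 at 0.05 μM, and 1.97 and 2.36 at 0.5 μM. These values rest on 105 to 259 counts a sample. The order of conditions resembled that of KRT81, with C1 on top and C2 and 0.5 μM at the bottom, and edgeR called KRT86 in no comparison. DESeq2 called it over any of 6 conditions, and without replicate 2 of C1 edgeR called it there and in C2 against C1. Its counts were 6.30% to 9.30% of those of both genes together, so that KRT81 had 9.75 to 14.9 times the counts of KRT86. How far the shared reads enter this likeness was not tested.

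EPCAM was low and did not change detectably. It measured 4.71 and 6.77 CPM in C1, 4.37 and 5.19 in C2, 4.91 and 5.17 at 0.0005 μM, 4.52 and 5.05 at 0.005 μM, 4.85 and 4.67 at 0.05 μM, and 5.33 and 5.24 at 0.5 μM, from 227 to 408 counts a sample. The condition means lay within 1.21-fold of each other, and the log2 fold change of treated against untreated was -0.08 (SE 0.12, adjusted p = 0.681). Replicate 2 of C1 was the highest sample and replicate 1 of C2 the lowest, so the untreated samples spanned the treated ones.

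CLDN1, a seal of the tight junction, had the largest range of the 10 genes, with condition means 2.15-fold apart. It measured 13.3 and 12.7 CPM in C1 and 30.0 and 23.4 CPM in C2. Paclitaxel samples had 30.6 and 25.5 CPM at 0.0005 μM, 24.0 and 22.8 at 0.005 μM, 22.5 and 22.4 at 0.05 μM, and 17.3 and 16.7 at 0.5 μM. Both C1 samples were the lowest of all 12, both 0.5 μM samples came next, and the means of C2 and 0.0005 μM were the highest. From day 2 to day 4 without drug CLDN1 rose by 1.03 on the log2 scale (2.05-fold, SE 0.15, adjusted p = 0.0109). It was 1 of 10 genes called between the untreated days, where 0.325% of all tested genes were called and 0.321% called higher. With only the 4 samples of the comparison in the fit the log2 fold change was again 1.03, but the adjusted p was 0.998 and 0 of all tested genes were called. The call was also lost without replicate 1 of C2 (0.84 on the log2 scale, adjusted p = 0.158). With either of the C1 samples that stand apart left out it held, at 1.07 and 1.03 (adjusted p = 0.0027 and 0.000821).

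At 0.5 μM CLDN1 was lower than in C2 by a log2 fold change of -0.65 (0.635-fold, SE 0.15, adjusted p = 0.0286), again 1 of 10 genes where 6.32% of all tested genes were called and 1.96% called lower. Leaving out replicate 1 of C2 took this to -0.47 (adjusted p = 0.3), and without replicate 1 or replicate 2 at 0.5 μM it was -0.71 or -0.63 (adjusted p = 0.111 or 0.221). Without replicate 1 or replicate 2 at 0.005 μM it was -0.66 in both (adjusted p = 0.0617 or 0.0622), so that the call was lost and the size was not. With both untreated days as the control the value was -0.14 (adjusted p = 0.517), with both C1 samples below the 0.5 μM samples. The slope along dose was -0.22 (SE 0.04, adjusted p = 0.00844).

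CLDN7, which lies on chromosome 17, measured 13.5 and 16.2 CPM in C1, 18.5 and 16.3 in C2, 21.2 and 19.5 at 0.0005 μM, 17.1 and 17.8 at 0.005 μM, 14.9 and 13.0 at 0.05 μM, and 14.8 and 14.1 at 0.5 μM. The 4 samples of the lower doses were above the 4 samples of the higher doses, an order whose share over all genes was not computed. Its slope was -0.18 (SE 0.04, adjusted p = 0.0285), and no dose was called against C2. The slope call was lost with the replicate number as a block (adjusted p = 0.0509), without either 0.0005 μM sample or both, and without replicate 2 at 0.005 or 0.5 μM. Between the untreated days it was not called (log2 fold change 0.23, SE 0.15, adjusted p = 0.608). The difference between the claudins was not tested.

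The promoter of CLDN7 is shown because the EMT factors ZEB1 and SNAI1, measured here at 87.6 and 8.32 CPM, are known to bind the E-box letters CAGGTG. RefSeq promoters of 300 bases, 250 before and 50 from the start site on, were matched for 3 of the 10 genes, KRT8, CLDN1 and CLDN7, and CLDN7 had 2 start sites. The window of 1 CLDN7 start (GRCh38.p14, chr17:7262429-7262728, minus strand) held 5 such boxes on either strand, in capitals, at -174, -135, -20, -9 and 6 relative to the start site.
CLDN7: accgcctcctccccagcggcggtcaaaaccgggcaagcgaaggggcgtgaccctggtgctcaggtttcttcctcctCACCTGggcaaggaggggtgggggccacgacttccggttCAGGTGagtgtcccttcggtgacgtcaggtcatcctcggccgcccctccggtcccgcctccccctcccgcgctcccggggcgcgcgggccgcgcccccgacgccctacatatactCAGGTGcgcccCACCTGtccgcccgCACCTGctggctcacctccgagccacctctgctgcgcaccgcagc
At least 1 box was present in 20.6% of the 35116 promoters in the table, and 5 or more in 0.094%. The other CLDN7 window, CLDN1 and KRT8 held none. The GC box GGGCGG, searched on both strands, had 2 matches in this CLDN7 window and 2 in that of CLDN1, and in 45.0% of all promoters. The AP-1 letters TGANTCA and the TATA letters TATAAA were found in none of these windows, and in 7.71% and 11.5% of all promoters. These matches are letters in a window and not measured sites.

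**Figure D4:**
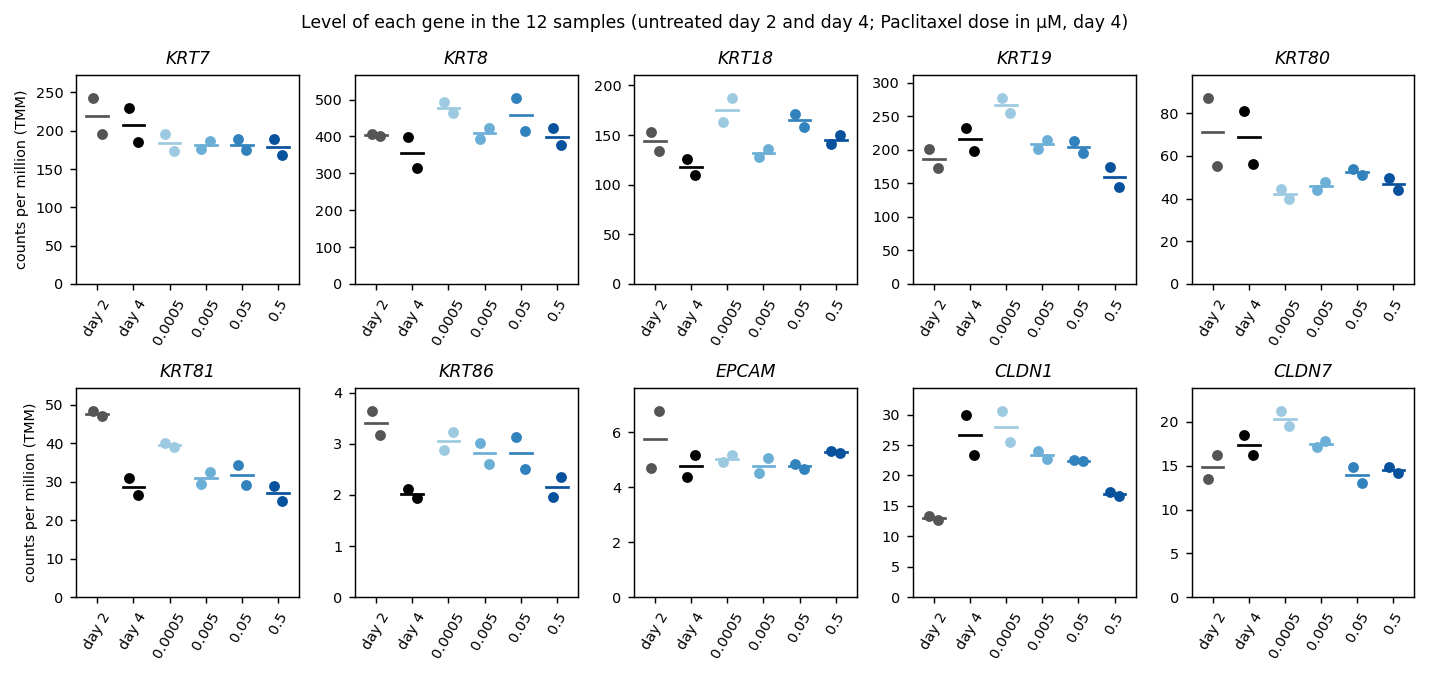
CPM of each of the 10 genes in 12 samples, by condition, where points are samples, short lines the means of 2 and each axis starts at 0. KRT80 lies at 55.2 to 87.2 in untreated and 39.8 to 53.8 in treated samples, and CLDN1 at 12.7 to 13.3 on day 2.

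Taking each dose against C2, 0, 0, 0 and 1 of the 10 genes were called from the lowest to the highest dose, where 2.34%, 3.28%, 8.32% and 6.32% of all tested genes were. At an unadjusted p under 0.05 these were 5, 2, 3 and 3, a cut at which the share over all genes was not computed. DESeq2 called 1, 0, 1 and 1 of the 10, with 1173, 1360, 2665 and 2301 calls over all genes. The median log2 fold change of the 10 genes was 0.27, 0.004, -0.04 and -0.15, against -0.01, 0.04, -0.01 and 0.04 over all tested genes and -0.04, -0.12, -0.11 and -0.11 over genes above 8 CPM. At 0.0005 μM 8 of 10 lay above C2, and at 0.5 μM 4 of 10. The doses share the C2 samples, so these counts are not independent. With both C1 samples left out, 3 genes were called at 0.0005 μM (KRT18, KRT80, KRT81), KRT80 at 0.005 μM, KRT18 at 0.05 μM and 3 at 0.5 μM (KRT19, KRT80, CLDN1), while the calls over all genes grew to 2576, 3187, 4817 and 5033.

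**Figure D5:**
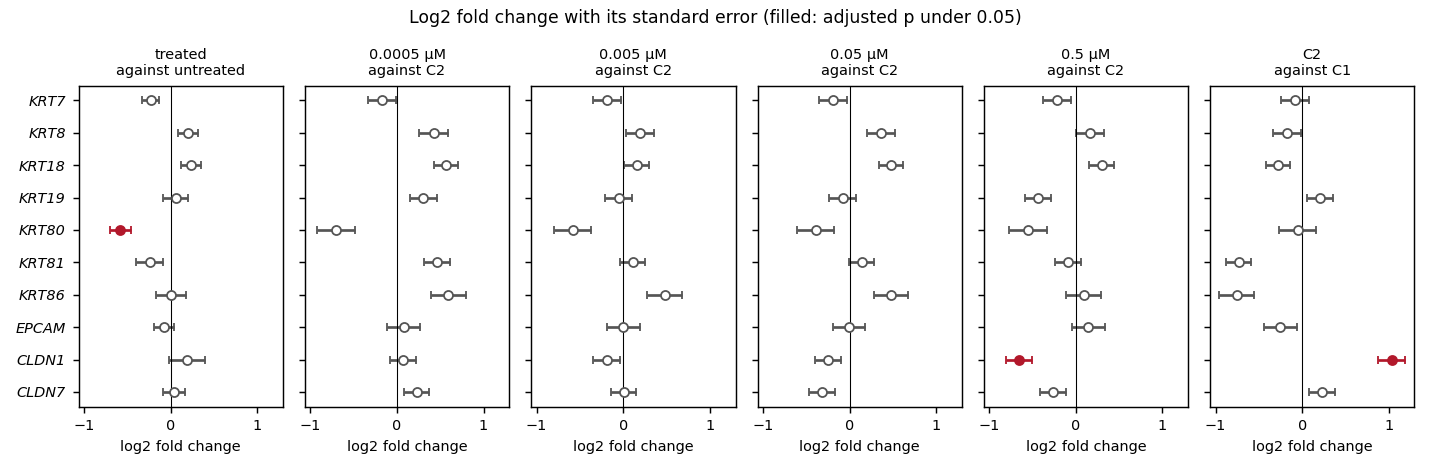
Log2 fold change and standard error of the 10 genes in 6 comparisons, with filled points for an adjusted p under 0.05. KRT80 in treated against untreated (-0.58), CLDN1 at 0.5 μM (-0.65) and CLDN1 in C2 against C1 (1.03) are filled.

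Of the 26 other type I keratins, 8 passed the filter and 3 were called higher in treated samples (KRT14, KRT16, KRT17). Along dose 3 of the 8 were called lower. KRT10, a keratin of differentiated epidermis, was the most abundant of them at 40.8 CPM and was not called (0.04, SE 0.10, adjusted p = 0.826). KRT15 followed at 8.05 CPM. With C2 alone as the control KRT14 and KRT16 were called as well and KRT17 was not (1.18, adjusted p = 0.214). KRT17 was at 0.92 in C2 against C1 (adjusted p = 0.627) and at -0.22 at 0.5 μM against C2 (adjusted p = 0.848), so for it treatment and culture time cannot be told apart. KRT14, a basal epithelial keratin, averaged 0.993 CPM and rose with a log2 fold change of 2.82 (SE 0.39, adjusted p = 0.000111). It was called higher against C2 at each dose. Of the 21 other type II keratins 3 passed the filter and 2 rose, KRT79 and KRT4, which averaged 0.203 and 0.187 CPM. The third, the hair keratin KRT83, had the highest level per length of them, 0.169 CPM per kilobase, and was not called. KRT79 was also called with C2 alone as the control (3.36, adjusted p = 0.0138) and KRT4 was not (1.54, adjusted p = 0.0777). All 21 together summed to 0.418 to 0.759 CPM in untreated and 0.721 to 1.66 CPM in treated samples. KRT5, the partner of KRT14, had 0.0472 CPM and did not pass the filter.

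The genes that anchor keratin filaments showed 4 of 15 called, 1 higher and 3 lower. The hemidesmosome integrins ITGA6 and ITGB4 fell by 0.55 (adjusted p = 0.00362) and by 0.80 (adjusted p = 0.0122) on the log2 scale, and TCHP, a keratin-binding protein, fell by 0.55 (adjusted p = 0.00227). CD151, a tetraspanin partner of these integrins, and PNN were the most abundant per length, at 70.1 and 47.8 CPM per kilobase, and were not called. EPPK1, a keratin linker of 1.40 CPM, rose by 1.59 (adjusted p = 0.0163). ITGA6 and TCHP were called with C2 alone as the control as well, and ITGB4 (-0.55, adjusted p = 0.089) and EPPK1 (1.63, adjusted p = 0.0786) were not. Against C2 by dose ITGA6 was called lower at 0.05 and 0.5 μM and EPPK1 higher at 0.05 μM, and no other gene of the list was called. Among 14 desmosome genes 9 passed the filter and 1 was called, PKP1, which averaged 0.139 CPM and was called higher against C2 at each dose. PERP at 166 CPM and DSG2 at 208 CPM were the most abundant per length and were not called. Of 28 other tight junction genes 24 were tested and 2 rose, CLDN16 and CLDN11, which averaged 0.114 and 0.0888 CPM, while LSR at 53.3 CPM and CLDN12 at 103.8 CPM were not called. Neither of the 2 was called with C2 alone as the control (adjusted p = 0.317 and 0.247). The calls of this list against C2 by dose were lower ones, TJP3 at 0.05 and 0.5 μM and CXADR at 0.05 μM (-0.64, adjusted p = 0.0209).

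Of the other intermediate filament genes 11 of 16 were tested and 6 called in treated against untreated, 5 of them lower and DES higher. The neural stem cell filament NES fell by 0.80 (adjusted p = 0.00167) and the lamins LMNB2, LMNB1 and LMNA fell as well, LMNB2 by 0.74 (adjusted p = 0.00478), and SYNM fell by 0.59. With C2 alone as the control LMNB1 was not called (-0.28, adjusted p = 0.265), and the other 5 were, LMNB2 at -0.49 (adjusted p = 0.0327) and LMNA at -0.44 (adjusted p = 0.0483). LMNB1 was at -0.67 in C2 against C1 (adjusted p = 0.337) and at -0.07 at 0.5 μM against C2 (adjusted p = 0.862), so for it treatment and culture time cannot be told apart. Against C2 by dose, DES was called higher at 0.05 and 0.5 μM and SYNM lower at 0.05 μM, and no other gene of the list was called. VIM was not called (-0.12, SE 0.14, adjusted p = 0.552). Of 24 epithelial identity genes 17 were tested, 4 called higher (EHF, MAL2, MUC1, GRHL1) and 1 lower. EHF, at a mean of 0.548 CPM, rose by 3.82 (adjusted p = 1.6e-06) and was called higher against C2 at each dose. EHF and AP1M2 were also called with C2 alone as the control, and MAL2 (0.81, adjusted p = 0.224), MUC1 (adjusted p = 0.103) and GRHL1 (0.52, adjusted p = 0.182) were not. MAL2 was at 1.27 in C2 against C1 (adjusted p = 0.31), and against C2 at 1.51 at 0.0005 μM (adjusted p = 0.0191) and 0.11 at 0.5 μM (adjusted p = 0.866). AP1M2, a sorting adaptor of polarised epithelia, fell by 0.55 (adjusted p = 0.0015), MUC1 rose by 0.78 (adjusted p = 0.00615) and GRHL1 by 0.59 (adjusted p = 0.035), while SPINT2, the most abundant at 389.3 CPM, was not called. CDH1 was not called (1.06, SE 0.46, adjusted p = 0.105). Of 8 EMT factors 6 were tested and SNAI1 rose by 0.65 (SE 0.18, adjusted p = 0.0131), while ZEB1 was not called (0.02, SE 0.09, adjusted p = 0.899).

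Markers of other epithelial cell types ranged widely in level. A mean over 1 CPM was held by 4 of 7 luminal, 3 of 8 basal or myoepithelial and 3 of 10 keratinocyte markers. EGFR was the most abundant of the basal list at 360.9 CPM and KRT10 of the keratinocyte list at 40.8 CPM. Of 7 luminal breast markers 6 were tested and 1 called, TFF1, a secreted trefoil peptide, which rose by 1.58 (adjusted p = 0.00086), and XBP1 was the most abundant at 155.5 CPM. Of 8 basal or myoepithelial markers 7 were tested, with 3 called higher (KRT14, TP63, KRT17) and EGFR lower by 0.46 (adjusted p = 0.0281). With C2 alone as the control TP63 (0.63, adjusted p = 0.0344) and EGFR (-0.45, adjusted p = 0.0269) were called as well, while no single dose was called against C2 for either. TP63 was at 0.90 in C2 against C1 (adjusted p = 0.302). Of 21 alternatives EGFR kept its call in 19 and TP63 in 21. Of 10 keratinocyte markers 5 were tested, with 3 called higher (KRT14, SBSN, DMKN) and FLG, which binds keratin filaments in epidermis, lower by 1.25 (adjusted p = 0.00108). FLG was at -0.92 with C2 alone as the control (adjusted p = 0.00179) and was called at no single dose, with -1.08 at 0.5 μM (adjusted p = 0.135). Of 11 fibroblast markers 7 were tested and 3 rose (COL3A1, PDGFRA, FAP), at means of 0.704, 0.822 and 0.0949 CPM, while COL1A1 at 7.62 CPM and PDGFRB at 6.14 CPM were not called. COL3A1 was not called with C2 alone as the control (1.97, adjusted p = 0.0562). PDGFRA and FAP were called higher against C2 at each dose. All these counts are to be read against the 24.4% of tested genes called in treated against untreated. Of the 33 genes of these lists called in it, 22 were called with C2 alone as the control, where calls over all genes went from 6155 to 3408. In every alternative that tested them 19 were called, among them FAP, which was tested in 20 of 21. None of the 33 changed direction.

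The likeness of each gene's profile to other genes was ranked by Pearson r of log2 CPM over the 12 samples, among 10425 protein-coding genes with a mean of at least 5 CPM. These r values are the highest of many and are a description. KRT80 was closest to GAS6 (0.976) and ATP6V0E2 (0.968), KRT7 to PCBP4 (0.973) and APEH (0.965), and CLDN1 to PTPRH (0.968) and AHR (0.967). CLDN7 was closest to RIGI (0.965) and RABAC1 (0.958), KRT81 to NCBP2AS2 (0.955) and RRP7A (0.943), and KRT19 to MARCHF3 (0.953) and SNTB1 (0.948). KRT18 was closest to TXNL4B (0.947) and CCDC80 (0.919), EPCAM to CIAO2A (0.939) and PRPF18 (0.937), and KRT8 to EXOSC4 (0.925) and TUSC2 (0.904). KRT86 had the weakest match, MYG1 at 0.812 and DHRS4 at 0.765. No member of the 10 was allowed in this ranking.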

How the data were processed

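MDA-MB-231 cells in Matrigel were profiled by paired-end RNA sequencing in 12 samples, 2 per condition. Per the labels and the study's methods, the authors trimmed with Trimmomatic 0.39, checked reads with FastQC 0.11.9, aligned with STAR 2.7.5 to GRCh37, kept unique alignments and counted exonic reads per gene with Rsubread. The deposited values are raw integer counts, and each single file was identical to its column of the table in 12 of 12 cases. Counts were scaled by TMM, filtered with filterByExpr by the 6 conditions and tested two-sided with edgeR 4.0.16 (quasi-likelihood, robust) in R 4.3.3, with Benjamini-Hochberg adjustment over all 25249 tested genes and a threshold of 0.05. The standard error of a fold change was taken as its size over the square root of F. CPM (counts per 1000000 of the TMM-scaled library) had 2 added as a prior before the log2. Each dose and C2 against C1 came from 1 fit of 12 samples with 6 residual degrees of freedom and a common biological coefficient of variation of 15.6%. The pooled treated contrast and the slope on log10 dose had fits of their own. Exon lengths and coordinates come from the GENCODE annotation on GRCh37, and promoters from RefSeq. The procedures were tested on simulated counts. The study calls its replicates biological, and p-values measure the spread between these samples.

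Named were the 10 genes in full, and from each list the 2 genes of highest level per length, up to 3 called genes of at least 1 CPM, and CDH1 and VIM. Other genes (KRT4, KRT5, KRT16, KRT17, PKP1, ITGA6, CLDN16, CLDN11, TJP3, CXADR, SYNM, DES, EHF, MAL2, SBSN, COL3A1, PDGFRA, FAP, ESRP1) were added after their values were seen. The members and lists were chosen with earlier results of these data known. Alternatives were DESeq2 1.42.0, RLE scaling, other filters, no robust estimation, GC content and length offsets, the replicate number as a block, other control or sample sets, KRT81 and KRT86 summed, and each sample left out. A sequence comparison of 1 pair of genes is not reported here.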

Additional observations from a re-analysis of the deposited data

Results flagged for a closer look

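Of 20 groups examined (the 4 untreated and the 8 treated samples for each of the 10 genes), 1 held a sample far from the rest, and the critical value used is passed by chance in about 1 in 20 groups. It was KRT8 in untreated samples, where replicate 2 of C2 had 314.6 CPM. The nearest other value was 397.9 CPM and the highest 406.5, so that the gap was 0.906 of the whole range.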

How the results depend on the processing

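Of the fold changes recomputed, 7 called ones of the 10 genes and 33 called ones of listed genes in treated against untreated, none changed direction. KRT80 in treated against untreated kept its call in 21 of 21 alternatives, and CLDN1 in 17 of 23 at 0.5 μM and 19 of 21 between untreated days. The dose slope kept its call in 14 of 18 for KRT19 and CLDN1, 12 for CLDN7 and 10 for KRT81. For the number of the 10 genes called, treated against untreated (1) gave 3 with GC content and length offsets, 2 with DESeq2 and 1 to 2 with a sample left out. At 0.0005 μM (0) it was 2 at a filter of 1 count in total, 1 at a mean of 10 counts, 3 with offsets, 3 with only the 4 samples, 3 with both untreated days, 1 with DESeq2, 3 without both C1 samples and 0 to 3 with a sample left out. At 0.005 μM (0) it was 1 at 1 count in total, with only the 4 samples and without both C1 samples, and 0 to 1 with a sample left out. At 0.05 μM (0) it was 1 at a mean of 10 counts, with offsets, with only the 4 samples, with DESeq2 and without both C1 samples, and 0 to 1 with a sample left out. At 0.5 μM (1) it was 2 at 1 count in total, 3 with offsets, 3 without both C1 samples and 0 to 3 with a sample left out. C2 against C1 (1) gave 2 at 1 count in total, with offsets and with DESeq2, 0 with only the 4 samples and 0 to 3 with a sample left out. The dose slope (4) gave 0 without the 0.0005 μM samples, 1 without the 0.5 μM samples and 0 to 4 with a sample left out. Any of 6 conditions (2) gave 4 at 1 count in total, 5 with offsets, 7 with DESeq2 and 1 to 7 with a sample left out, the highest without replicate 2 of C1. Calls over all genes moved in the same fits. At 0.0005 μM they went from 592 to 1480 at 1 count in total, 1194 with offsets and 2624 with only the 4 samples. Over any of 6 conditions they went from 2787 to 7149 at 1 count in total, 4187 with offsets and 5527 with DESeq2. The counts among the 10 are to be read beside these, and the cause of the moves was not tested. The replicate block gave 2 along dose (KRT19 and CLDN1, with KRT81 at an adjusted p of 0.074 and CLDN7 at 0.0509) and 4 over any of 6 conditions. In the other comparisons the number called among the 10 was unchanged with it. Over all genes the calls along dose went from 773 to 420 with the block. The replicate numbers showed no uniform pairing of the samples. Of 15 condition pairs 6 had a correlation of deviations above 0.1 (range -0.593 to 0.628), and 6 of 12 samples correlated best with a sample of their own number. Whether the numbers pair the samples of some conditions was not tested. Dropping both C1 samples or whole doses was added after the data were seen. A sample left alone in its condition was assumed to vary like the others. EPCAM and KRT86 rested on 105 to 408 counts a sample, and the size of difference that 2 samples a condition could detect was not measured.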
